A study of Mus musculus with 11 samples.

Results

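The endoplasmic reticulum (ER) folds and quality-checks the proteins that a neuron secretes or puts into its membranes. The results below describe 36 genes of that system: the sensors that watch over folding, the chaperones, the enzymes of oxidative folding and the machinery that removes misfolded proteins. The 36 were fixed by gene symbol (GRCm38 names) and were found as 36 of 48709 Ensembl gene IDs in the deposited count tables. All 36 passed the filter on low counts, among 16235 genes that did.

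The cells were primary mouse hippocampal neurons, taken from the hippocampus and kept in culture for 10 days at 20% oxygen. The 5 hypoxia libraries came from cells then held at 1% oxygen for 4 h in a hypoxia workstation, and the 6 control libraries from cells of the same isolation that stayed at 20% oxygen. No strain, age or genotype is given in the sources used here, and nothing says whether libraries of a group came from separate dishes or animals, so the p-values measure the spread between these libraries, which may be technical. The question was which transcripts of the ER system differ after a short period of low oxygen.

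When proteins misfold, the ER membrane proteins IRE1, ATF6 and PERK start the unfolded protein response. IRE1 splices the mRNA of the transcription factor XBP1, ATF6 is cut in the Golgi to release a transcription factor, and PERK phosphorylates eIF2 and so slows translation while favouring the factor ATF4. XBP1 and ATF6 are known to raise ER chaperones and degradation genes through ER stress response elements (ERSE) in promoters, and ATF4 acts through composite elements shared with C/EBP factors. Disulfide bonds in the ER are made with oxygen as the final electron acceptor, by ERO1 oxidases that recharge protein disulfide isomerases.

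Because these elements set much of what is known about the regulation of the pathway, the promoters of the members were read first. Windows from 250 bases before to 50 bases after the RefSeq start (GRCm38.p6) were found for 32 members. No window was found for Atf6, Hyou1, Derl1 and Manf, so their promoters were not searched. The ERSE was searched as CCAAT and CCACG with 9 free bases between them, the ERSE-II as ATTGG and CCACG with 1 free base between them, the unfolded protein response element (UPRE) as TGACGTGG and the ATF4 composite element as TGATGNAAN, on both strands. An ERSE stood in the windows of 10 of the 32 members (31.2%) and in 39 of all 32851 windows (0.119%). These were Hspa5, Hsp90b1, Dnajc3, Creld2, Calr, Canx, Pdia6, Ero1lb, Syvn1 and Derl3. The ERSE-II was found for Herpud1 and Dnajb11, and in 0.0365% of all windows. The composite element was found for Herpud1 alone among the 32 members (3.12%), a share near the 3.95% of all windows. The UPRE was found for none of them (0.676% of all windows). The following stretches are those of called members that hold an element, with Hspa5, chosen after its values were seen, for comparison. The Hspa5 stretch lies before the RefSeq start but touches an exon annotated in GENCODE vM21. Capitals mark the match, and each stretch is written 5′ to 3′ on the strand of its gene.
Herpud1 (chr8:94386304-94386399, plus strand, composite element in reverse, then ERSE-II): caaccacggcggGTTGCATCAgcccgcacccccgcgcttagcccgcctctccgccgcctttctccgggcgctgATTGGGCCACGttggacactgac
Hsp90b1 (chr10:86705626-86705668, minus strand, ERSE): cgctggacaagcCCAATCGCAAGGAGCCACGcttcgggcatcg
Hsp90b1 (chr10:86705521-86705563, minus strand, ERSE in reverse): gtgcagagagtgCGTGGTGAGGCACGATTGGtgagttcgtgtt
Dnajc3 (chr14:118937815-118937857, plus strand, ERSE): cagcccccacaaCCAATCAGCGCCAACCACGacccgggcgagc
Creld2 (chr15:88819508-88819550, plus strand, ERSE in reverse): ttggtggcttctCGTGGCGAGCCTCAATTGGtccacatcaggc
Hspa5 (chr2:34772020-34772048, plus strand, ERSE): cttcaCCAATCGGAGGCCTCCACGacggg

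The members with an ERSE did not share a direction. Of the windows found, an ERSE stood in 1 of 3 members called higher, 2 of 9 called lower and 7 of 20 not called, where a call is an adjusted p under 0.05 in edgeR. The HIF core ACGTG is part of many longer motifs and overlaps the ERSE-II of Herpud1. It was found, on either strand, in 13 of the 32 members' windows (40.6%) and in 19.6% of all windows, and the core GCGTG in 21 of them (65.6%) and in 32.4% of all windows. Matches to GCGTG overlap the ERSE of Hsp90b1, Calr and Canx and the ERSE-II of Dnajb11, so some bases count for both motifs. By call, ACGTG stood in 2 of 3 members called higher, 3 of 9 called lower and 8 of 20 not called. For GCGTG these numbers were 3, 4 and 14. Ssr1, not called, held 3 matches to each core, and Mbtps1, called lower, held 4 to GCGTG. Ero1l holds a match to ACGTG and 2 to GCGTG before its RefSeq start, shown here as the member with the largest change. The Ero1l stretches touch an exon annotated in GENCODE vM21, where the gene starts further upstream. A match describes the letters and is neither a binding site nor a cause.
Ero1l (chr14:45318691-45318705, minus strand): cgggtGCGTGagcgg
Ero1l (chr14:45318651-45318665, minus strand): ggctcGCGTGgacag
Ero1l (chr14:45318626-45318640, minus strand, ACGTG in reverse): cgctgCACGTccgca

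After 4 h at 1% oxygen, 4 members were higher and 9 were lower, and the other 23 did not pass the test. Called genes made up 36.1% of the members and 22.9% of all genes tested, with 10.1% of all genes called higher and 12.8% called lower. The members were also more abundant than most genes, with a median control level of 63.7 CPM against 16.5 CPM over all tested genes, so the shares are given side by side and not compared. CPM, the usual unit of depth-corrected counts, was computed with TMM-scaled library sizes. Libraries held 16619493 to 31917157 counts, and the members' share of these was 0.436 ± 0.00469% over the 6 control libraries and 0.434 ± 0.0150% over the 5 hypoxia libraries (mean ± SD, as in all such values below). The median log2 fold change (hypoxia over control) was -0.05 over the members and -0.02 over all tested genes. Of the 36, 28 had a fitted value below 0, against 8782 of 16235 genes tested. This count moved with the scaling: 23 members were below 0 with RLE factors and with DESeq2, where Hspa5, Manf, Calr, Sec61b and Pdia3, all close to 0, changed sign.

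**Figure D1:**
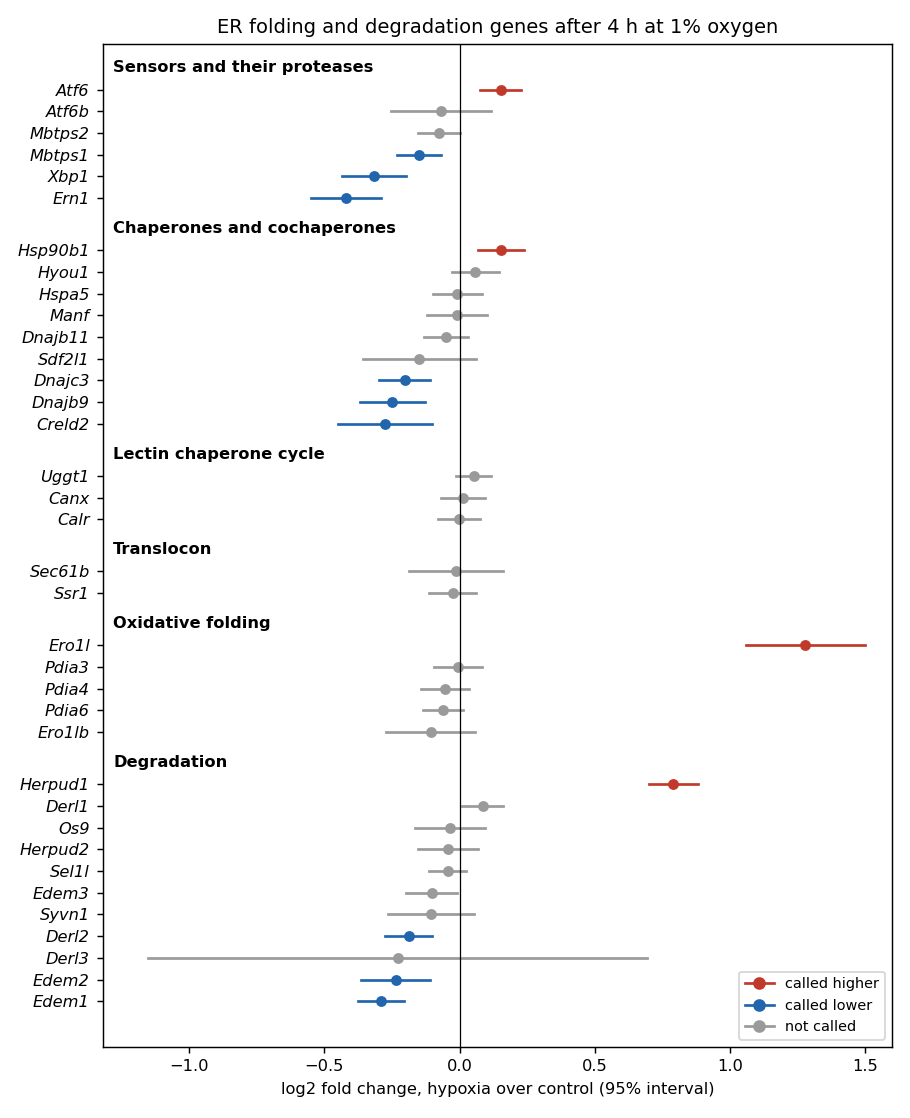
Log2 fold change of each of the 36 members, hypoxia over control, from the edgeR fit, by role. Bars are 95% intervals, red points were called higher, blue points lower and grey points were not called. Ero1l and Herpud1 stand at 1.28 and 0.79, and the 9 lower members between -0.15 and -0.42.

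Large increases were found in 2 members, the oxidase gene Ero1l and the degradation gene Herpud1. The other 2 higher members, Atf6 and Hsp90b1, changed by 11.1% and 11.3%. The 9 lower members fell by 9.80% (Mbtps1) to 25.2% (Ern1). In 30 of the 36 members the fitted log2 change was within 0.25 of 0, as it was for 12582 of the 16235 genes.

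Among the sensors and their proteases, 1 member was higher and 3 were lower of 6. Ern1 (ENSMUSG00000020715, chr11:106394650-106487852), which encodes IRE1 alpha, a kinase and RNase, stood at a median of 14.98 CPM in control (14.5 to 17.2 CPM). In hypoxia libraries 1 to 5 it stood at 11.7, 12.2, 10.9, 10.9 and 11.7 CPM. Each hypoxia library lay below each control, and the log2 fold change was -0.42 with an SE of 0.061 (edgeR adjusted p = 0.000126). Xbp1 (chr11:5520659-5525893), whose mRNA IRE1 splices, had a control median of 88.2 CPM (86.1 to 95.5 CPM) and hypoxia values of 70.9, 69.0, 64.9, 67.9 and 84.1 CPM. Hypoxia 5 was close to the controls and the other hypoxia libraries far below them, with a log2 fold change of -0.32 (SE 0.056, edgeR adjusted p = 0.000726). Gene counts from these libraries do not separate spliced from unspliced Xbp1 mRNA. Without hypoxia 5, the Xbp1 log2 fold change was -0.38.

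Atf6 (chr1:170704674-170867771), the membrane-bound transcription factor, went the other way. Its control median was 57.7 CPM (54.0 to 58.4 CPM), and the hypoxia libraries stood at 61.9, 65.5, 62.9, 61.9 and 65.5 CPM, above all controls. The log2 fold change was 0.15 (SE 0.036, edgeR adjusted p = 0.00589). Its relative Atf6b had 70.9 ± 11.3 CPM in control and 67.8 ± 4.22 CPM in hypoxia, and its controls ran from 55.7 to 85.5 CPM, a range that held every hypoxia value. The site-1 protease gene Mbtps1, whose product makes the first cut in ATF6, fell from 76.5 ± 2.74 to 69.1 ± 2.74 CPM (log2 fold change -0.15, edgeR adjusted p = 0.0106), with hypoxia 5 at 72.5 CPM inside the control range of 71.7 to 79.3 CPM. Mbtps2, the site-2 protease gene, was not called (log2 fold change -0.08, edgeR adjusted p = 0.145). Of the exon length of Mbtps2, 28.4% lies under exons of Yy2 on the same strand, so its level is uncertain.

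**Figure D2:**
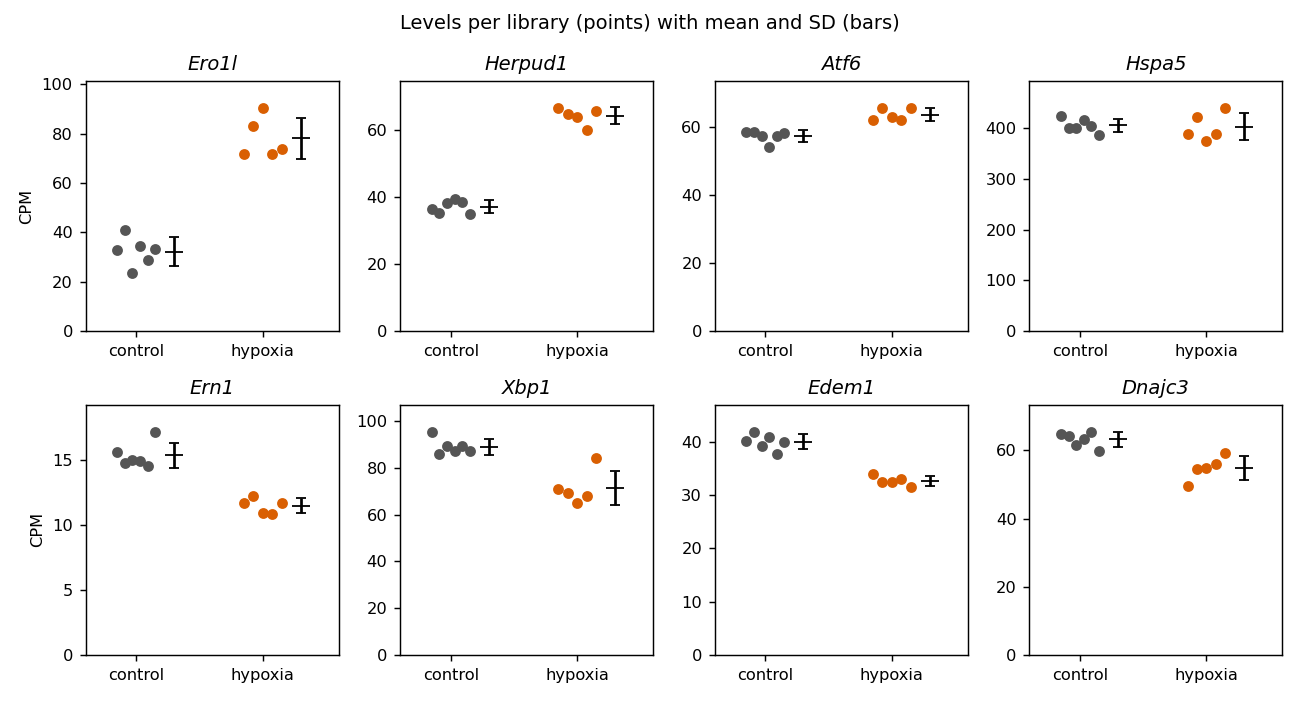
TMM-scaled CPM in each library (points, 6 control in grey and 5 hypoxia in orange) with the group mean and SD (bars), for 8 members. Ero1l, Herpud1 and Atf6 have no overlap with all hypoxia points above, and Ern1, Xbp1, Edem1 and Dnajc3 none with all hypoxia points below, while the groups of Hspa5 overlap.

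Of the 9 chaperones and cochaperones, 1 was higher and 3 were lower, and BiP, the most abundant of them, was not called. Hspa5, which encodes BiP, an Hsp70 of the ER that holds the sensors inactive, had a control median of 402 CPM (387 to 423 CPM) and hypoxia values of 389, 423, 375, 387 and 440 CPM. The groups overlapped, and the 95% interval of the log2 fold change was -0.10 to 0.08. The Hsp90 of the ER, Hsp90b1 (GRP94), had a control median of 312 CPM (301 to 342 CPM) and hypoxia values of 344, 374, 335, 351 and 361 CPM. Its log2 fold change was 0.15 (SE 0.040, edgeR adjusted p = 0.0106), and hypoxia 3 alone was inside the control range. Exons of other genes cover 15.7% of its exon length, among them the opposite-strand gene 1810014B01Rik, and the library kit does not mark strand. Hyou1, an Hsp110-like exchange factor for BiP, had a log2 fold change of 0.06 with an interval of -0.03 to 0.14, and Manf, a secreted protein that binds BiP, of -0.01 (-0.12 to 0.10).

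Of the 3 J-domain cochaperones, which stimulate BiP, 2 were lower. Dnajc3 (P58IPK), also known as an inhibitor of PERK, had a control median of 63.7 CPM (59.9 to 65.5 CPM) and hypoxia values of 49.7, 54.6, 54.8, 56.0 and 59.3 CPM. The groups did not overlap, and the log2 fold change was -0.20 (SE 0.044, edgeR adjusted p = 0.00340). Dnajb9 (ERdj4), which is known to bring BiP to IRE1, had a control median of 26.8 CPM (24.4 to 28.4 CPM) and hypoxia values of 20.8, 21.6, 23.2, 21.9 and 24.9 CPM (log2 fold change -0.25, SE 0.056, edgeR adjusted p = 0.00453). Only hypoxia 5 reached into its control range. Dnajb11 (ERdj3) had a log2 fold change of -0.05 (-0.13 to 0.03) and was not called.

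The last chaperone members are small ER-resident proteins. Creld2, a known ER stress target, had a control median of 12.9 CPM (11.2 to 13.6 CPM) and hypoxia values of 10.7, 9.68, 10.6, 9.02 and 12.4 CPM. Its log2 fold change was -0.28 (SE 0.081, edgeR adjusted p = 0.0218), a call lost without hypoxia 2 (adjusted p = 0.0693), without hypoxia 4 (0.0633) and with the replicate number as a block (0.0607). Sdf2l1, which works with the J proteins, had 4.23 ± 0.230 CPM in control and 3.81 ± 0.529 CPM in hypoxia and was not called (log2 fold change -0.15, interval -0.36 to 0.06). The lectin cycle, in which calnexin (Canx) and calreticulin (Calr) hold glycoproteins and Uggt1 re-tags those still misfolded, had no called member. For Canx the group means were 677 ± 18.8 and 683 ± 37.2 CPM and for Calr 481 ± 17.5 and 481 ± 21.2 CPM, with log2 intervals of -0.07 to 0.09 and -0.08 to 0.08. Uggt1 had a log2 fold change of 0.05 (-0.01 to 0.12). Of the translocon genes, Ssr1, a subunit of the translocon-associated complex, had -0.02 (-0.11 to 0.06) and Sec61b, a channel subunit, -0.01 (-0.19 to 0.16). Of the possible 50-base reads of Sec61b, 17.4% are found unchanged in other annotated genes, such as Gm10320.

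Oxidative folding held the member with the largest increase. Ero1l (ENSMUSG00000021831, chr14:45283087-45318771), now named Ero1a, encodes an ER oxidase that is a known target of HIF. It had a control median of 33.0 CPM (23.4 to 41.1 CPM) and hypoxia values of 71.7, 83.1, 90.4, 71.8 and 73.7 CPM. Each hypoxia library stood far above all controls, with a fold change of 2.42 and a log2 fold change of 1.28 (SE 0.10, edgeR adjusted p = 4.69e-07). The controls spread more than for most members, with a coefficient of variation of 18.3% against a median of 4.01% over the 36. The other oxidase gene, Ero1lb (Ero1b), had 10.3 ± 0.671 CPM in control and 9.51 ± 1.07 CPM in hypoxia and was not called (log2 fold change -0.11, interval -0.27 to 0.06). The disulfide isomerases that ERO1 recharges or that work beside it were not called: Pdia3, the partner of calnexin and calreticulin, had a log2 interval of -0.09 to 0.08, Pdia4 of -0.14 to 0.03 and Pdia6 of -0.14 to 0.01.

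Among the 11 degradation genes, 1 was higher and 3 were lower. Herpud1 (ENSMUSG00000031770, chr8:94386438-94395377), a membrane protein that helps assemble the HRD1 ubiquitin ligase complex, had a control median of 37.5 CPM (34.96 to 39.4 CPM). Its hypoxia values were 66.7, 64.9, 64.1, 60.1 and 65.9 CPM. The gap between the groups was many times their spread, with a fold change of 1.73 and a log2 fold change of 0.79 (SE 0.043, edgeR adjusted p = 4.32e-09). The Herpud1 promoter stretch, shown above, holds a composite element, found in about the same share of all windows as of the members' windows. It also holds an ERSE-II, as does the window of Dnajb11, which was not called. Whether either element has a part in the change of Herpud1 was not tested. Its relative Herpud2 had 37.0 ± 1.42 and 35.8 ± 3.05 CPM (log2 fold change -0.04, interval -0.15 to 0.07).

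The EDEM genes encode mannosidase-like proteins that pick out misfolded glycoproteins. Edem1 had a control median of 39.9 CPM (37.7 to 41.9 CPM) and hypoxia values of 34.0, 32.5, 32.4, 33.0 and 31.4 CPM, all below the controls (log2 fold change -0.29, SE 0.040, edgeR adjusted p = 7.59e-05). Edem2, which starts the trimming of mannose, had a control median of 18.5 CPM (16.3 to 19.0 CPM) and hypoxia values of 16.8, 16.8, 14.5, 14.4 and 15.2 CPM. Its groups overlapped through control 1, at 16.3 CPM, and its log2 fold change was -0.24 (SE 0.060, edgeR adjusted p = 0.00945). Edem3 was at 103 ± 4.69 and 96.2 ± 5.72 CPM and did not pass the test (log2 fold change -0.10, edgeR adjusted p = 0.109).

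The derlins form part of the channel through which proteins leave the ER. Derl2 had a control median of 49.0 CPM (46.9 to 52.5 CPM) and hypoxia values of 41.2, 42.9, 42.5, 45.6 and 44.4 CPM, all below the controls (log2 fold change -0.19, SE 0.041, edgeR adjusted p = 0.00327). Derl1 was at 64.2 ± 1.504 and 68.1 ± 2.57 CPM and was not called by edgeR (log2 fold change 0.08, adjusted p = 0.103), though DESeq2 called it higher (adjusted p = 0.0352). Derl3 was near the limit of detection, with 5 to 32 counts per library. The core of the ligase complex did not pass the test: the scaffold Sel1l had a log2 interval of -0.11 to 0.02, the ligase gene Syvn1 (HRD1) of -0.27 to 0.05 and the lectin Os9 of -0.17 to 0.10.

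**Figure D3:**
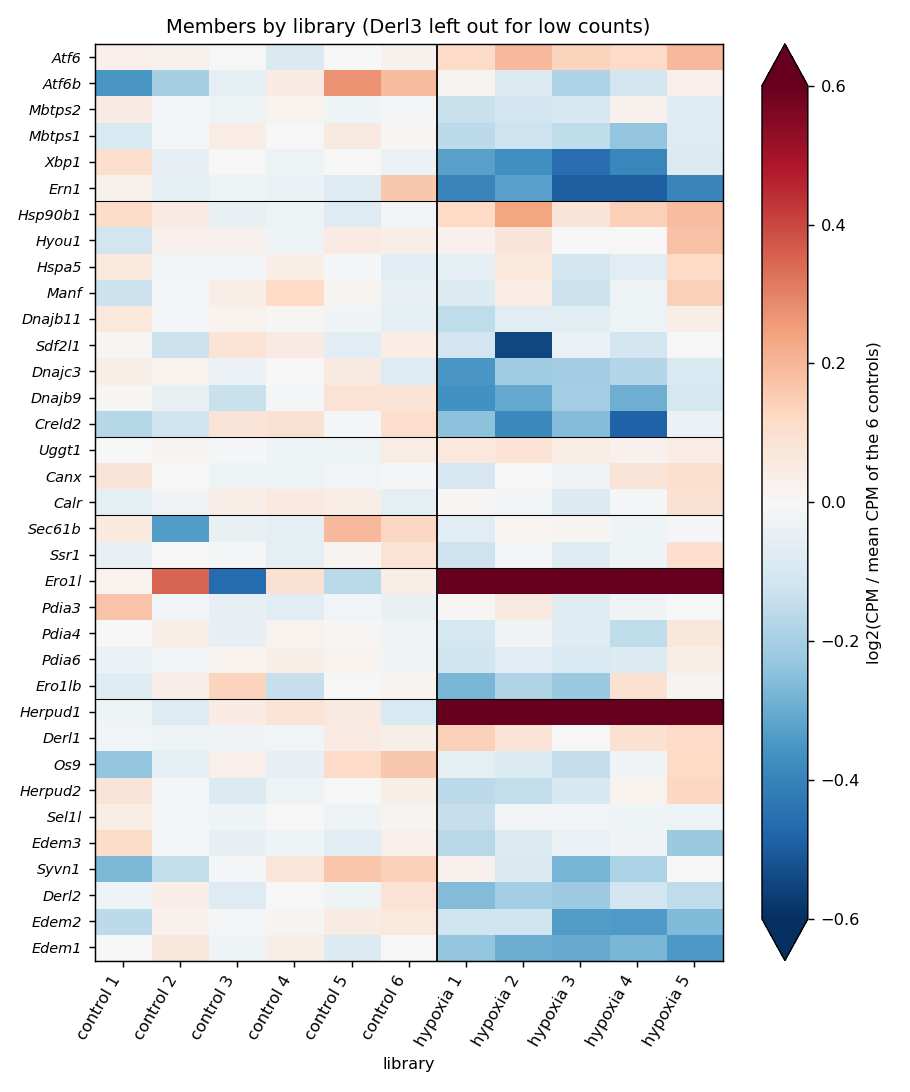
Log2 ratio of the CPM of each library to the mean of the 6 controls, for 35 members in rows, grouped by role and separated by lines (Derl3 is left out), and 11 libraries in columns. The colour scale ends at 0.6 in each direction, which Ero1l and Herpud1 exceed in all 5 hypoxia libraries. Xbp1, Dnajb9, Dnajc3 and Creld2 are paler in hypoxia 5 than in the other hypoxia libraries.

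Groups that did not overlap were counted as a description beside the fit, on the same libraries and with the same TMM scaling. The 5 hypoxia libraries lay above all controls for 3 members (Ero1l, Herpud1 and Atf6) and below all controls for 5 (Ern1, Xbp1, Dnajc3, Edem1 and Derl2). Over all tested genes the shares were 6.72% above and 7.26% below (14.0% in all). Hypoxia 5 bore on the count: without it, 9 members lay below all controls, the added ones being Mbtps1, Dnajb9, Creld2 and Pdia6. Without hypoxia 3, 5 lay above, with Hsp90b1 and Derl1 added.

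Among the hypoxia libraries, hypoxia 5 held the highest level for 19 of the 36 members. Of all 11 libraries it was highest for 10 members, and such counts were not made over all tested genes. It also had the highest summed level of 6 fibroblast and meninges markers, 341 CPM against 172 to 218 CPM in the other hypoxia libraries and 200 to 277 CPM in the controls. Whether this has a part in the members' levels was not tested. No member gained or lost its edgeR call without hypoxia 5. Over the groups, neuron markers summed to 10746 ± 311 CPM in control and 10863 ± 223 CPM in hypoxia and astrocyte markers to 1586 ± 72.8 and 1522 ± 62.5 CPM, so astrocyte transcripts were present in both groups. Of 12 neuron markers 1 was called, Neurod6 higher (log2 fold change 0.13, edgeR adjusted p = 0.0188), and of 7 astrocyte markers 1, Aqp4 lower (-0.20, edgeR adjusted p = 0.0269). Oligodendrocyte lineage markers summed to 132 ± 19.0 and 107 ± 12.9 CPM and 2 of their 7 genes, Olig1 and Olig2, were called lower. The part of these cell types in the members' changes was not tested. Microglia markers summed to 14.9 to 17.6 CPM over all libraries, with none called. Endothelial and mural markers summed to 43.8 ± 2.26 and 47.0 ± 3.44 CPM, and 1 of the 5 tested, the mural marker Pdgfrb, was called higher (14.5 ± 1.35 to 21.4 ± 3.39 CPM). Rgs5 of the same list was at 4.33 ± 1.21 and 3.83 ± 0.846 CPM and was not called (log2 fold change -0.16). The endothelial gene Kdr stood at 23.7 and 20.5 CPM, Pecam1 at 0.748 and 0.894 CPM and Cdh5 at 0.456 and 0.278 CPM. Cldn5 was close to 0. In RNA from whole cultures, a lower level in each cell and fewer cells of one type cannot be told apart. Of 6 known hypoxia-induced genes, 5 were called higher, Slc2a1 from 22.6 ± 5.04 to 66.7 ± 3.67 CPM. Bnip3 was not called (log2 fold change 0.33, edgeR adjusted p = 0.0517). These genes were listed with earlier results of these data known, so they are no independent check of the labels.

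Levels were set against each other between genes after division by exon length, taken over all annotated exons of a gene. The transcripts present may be shorter than that, so ratios and ranks between genes are approximate. Per kb of exon, Calr (167 CPM per kb), Canx (144), Pdia3 (119), Hspa5 (95.8) and Hsp90b1 (78.7) were the 5 most abundant members in control, and they kept that order in hypoxia. Ern1 (1.88 CPM per kb), Ero1lb (1.54) and Derl3 (0.230) were the least abundant in control. The gap at the top was small: the ratio of Calr to Canx per kb was 1.16 in control, with libraries at 1.06 to 1.23, and 1.15 in hypoxia. Ero1l moved from rank 31 of 36 to rank 19 and Herpud1 from 18 to 8, while Xbp1 moved from 8 to 12.

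**Figure D4:**
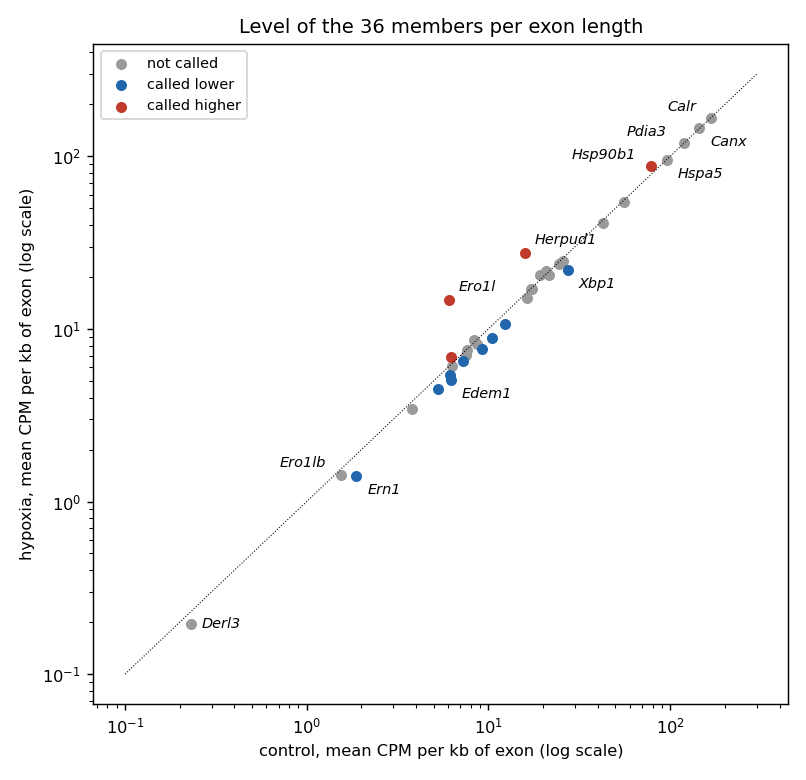
Mean level of each of the 36 members per kb of exon, control on the horizontal and hypoxia on the vertical axis, both logarithmic. The dotted line marks equal levels. Ero1l (6.10 and 14.8 CPM per kb) and Herpud1 (15.9 and 27.6) stand off the line. The abundant Calr, Canx and Hspa5 lie on or close to it, and Hsp90b1 (78.7 and 87.5) lies slightly above.

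Within gene families the members did not all change alike, and 8 pairs were compared through their ratio in each library, which does not depend on scaling. The pairs were added after the values were seen, and their p-values are exact 2-sided permutation tests over 462 splits, adjusted over the 8 pairs. Ero1l over Ero1lb, per kb, went from 3.91 (2.61 to 4.90) to 10.3 (8.28 to 13.0), and Herpud1 over Herpud2 from 2.52 (2.31 to 2.76) to 4.52 (4.02 to 5.04). Derl1 over Derl2 went from 3.14 (2.99 to 3.32) to 3.80 (3.62 to 4.16). In these 3 pairs the groups did not overlap, and each had an exact permutation p of 0.00216, the smallest the splits allow, and an adjusted p of 0.00577. Ero1l and Herpud1 had already been seen to lie above all controls, and Derl2 below them. These p-values therefore describe a known separation and do not test it anew. The adjustment over the 8 pairs does not cover how the pairs were picked. Edem1 over Edem3 fell from 0.382 to 0.336 (adjusted exact permutation p = 0.0130). The ratios Edem1 over Edem2 (0.438), Edem2 over Edem3 (0.228), Atf6 over Atf6b (0.204) and Calr over Canx (0.812) did not pass, with their adjusted exact permutation p-values in brackets. Thus Atf6 was called and Atf6b was not, but a difference between them was not shown.

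Other genes of the ER and its stress pathways were followed through lists of known pathway genes. Of the 10 genes listed as the PERK branch, 8 were higher and none lower, with a median log2 fold change of 0.82. Ordered by p-value, the first were Atf4 (1.10), Chac1 (1.63) and Atf3 (2.02), and all 8 lay above their controls without overlap. Ppp1r15a, which encodes the stress-induced eIF2 phosphatase subunit GADD34, rose from 18.1 ± 1.43 to 29.7 ± 2.99 CPM. Eif2ak3, which encodes PERK itself, had a log2 fold change of 0.10 and was not called (edgeR adjusted p = 0.241). The list name does not mean that PERK caused these changes, and the activity of PERK was not tested.

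Of 12 ER-anchored factors and IRE1 regulators, 10 were tested, with 3 higher and 1 lower. Rtcb, the ligase that joins the exons of Xbp1 after IRE1 has cut it, was higher (log2 fold change 0.13), as were Creb3 (0.17) and Dab2ip (0.22), and Crebzf was lower (-0.31). Of 7 known substrates of IRE1-dependent decay, 1 was higher, Pdgfrb (0.56), and none was lower. Pdgfrb is also the mural cell marker called above, and the part of those cells in its change was not tested. Bloc1s1, the best known of them, was at 3.80 ± 1.11 and 3.72 ± 0.726 CPM and was not called.

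**Figure D5:**
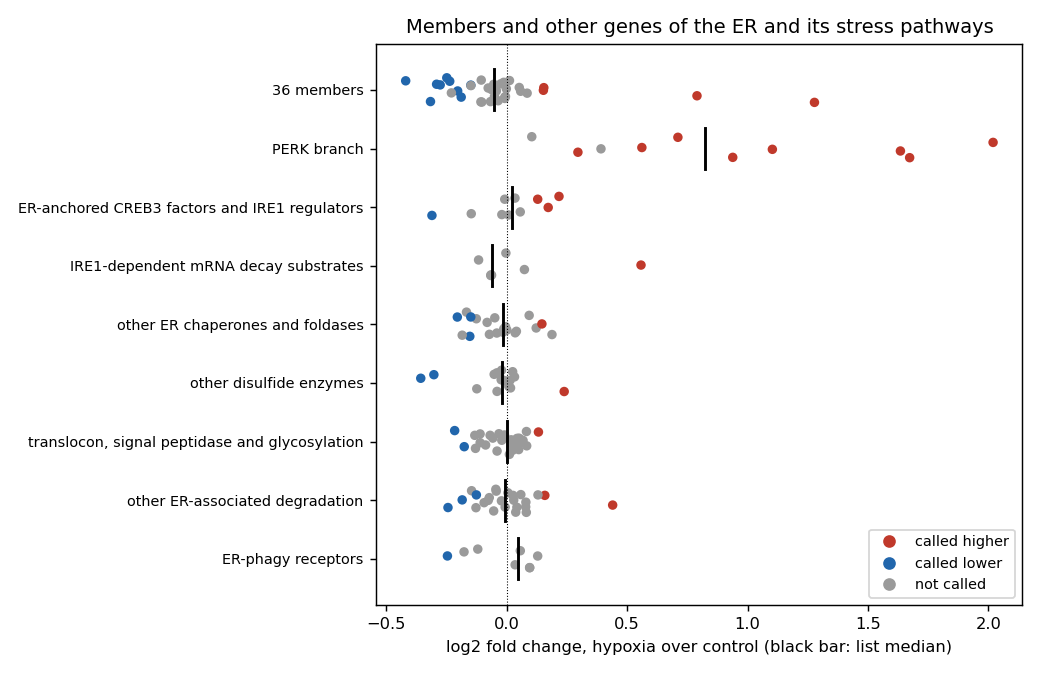
Log2 fold change (hypoxia over control) of the 36 members and of the tested genes of 8 other lists, 1 point per gene, red called higher, blue lower, grey not called. Black bars mark list medians, which lie between -0.06 and 0.05 except for the PERK branch at 0.82.

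In the folding and export lists, few genes were called. Of 21 other chaperones and foldases, 1 was higher (Sdf2, log2 fold change 0.15) and 3 were lower, Dnajc10 (-0.20), Dnajc16 (-0.15) and Sdf4 (-0.15). Of 16 other disulfide enzymes, P4hb was higher, from 169 ± 5.05 to 199 ± 9.24 CPM. P4hb encodes protein disulfide isomerase, which is recharged by ERO1 and is also the beta subunit of the collagen prolyl hydroxylases. The membrane-bound oxidoreductases Tmx1 (-0.36) and Tmx3 (-0.30) were lower. Of 28 genes of translocation, signal peptide cleavage and glycosylation, Stt3a (0.13) was higher and Spcs3 (-0.22) and Tram1 (-0.18) were lower.

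In degradation beyond the members, 2 of 25 genes were higher and 3 lower. Rnf185, an ER ubiquitin ligase, rose from 25.8 ± 1.40 to 34.9 ± 1.79 CPM, and Nploc4, a cofactor of the extraction ATPase VCP, had a log2 fold change of 0.16. Yod1, a deubiquitinase (-0.24), Ube2j2, a conjugating enzyme (-0.18), and Man1b1, a mannosidase (-0.13), were lower. Of 8 ER-phagy receptors, Atl3 was lower (-0.25). In these lists the shares called were below the 22.9% of all tested genes, apart from the PERK branch and the list with the IRE1 regulators.

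The authors' deposited table of genes higher in hypoxia lists 5 members, and their table of lower genes lists 9. In the authors' deposited tables these include all 13 members called here, in the same direction, and Derl1 (log2 fold change 0.10, adjusted p = 0.0491). Among the members, the authors' deposited tables give their largest value for Ero1l, at 1.28, and their lowest for Ern1, at -0.40.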

How the data were processed

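Polyadenylated RNA from cultured hippocampal neurons was made into libraries with a kit that does not mark strand and sequenced as single 50 bp reads, per the labels' protocols. The submitters' processing notes name build mm10 and, with no roles stated, STAR 2.5.2b, featureCounts (Subread 1.5.1), DESeq2 and FastQC 0.11.5. Annotation release, strand setting and treatment of multiply mapped reads: not given in the sources used here. The authors deposited raw counts per Ensembl gene ID for 11 libraries. They also deposited tables of their comparison with log2 fold changes and adjusted p-values per the file headers, whose per-library columns hold a normalized signal, the deposited count over 1 size factor, not used here.

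Counts were tested with edgeR 4.0.16 (R 4.3.3): filterByExpr, TMM, quasi-likelihood F test of hypoxia against control, 2-sided, no covariate, Benjamini-Hochberg over 16235 genes, called under 0.05. The code was tested on simulated data. SE is the log2 fold change over the root of F, and intervals are 95%. Exon lengths, overlaps and positions come from GENCODE vM21 (GRCm38, the assembly of mm10), promoter sequences from RefSeq (GRCm38.p6). Alternatives were DESeq2 1.42.0, RLE and upper-quartile factors, no filter, robust dispersions, a replicate block and leaving out each library. All members are named, and of other lists the called genes with the smallest p, up to 3 in each direction. The members and lists were chosen with earlier results of these data known. The Hspa5 promoter, the paralog pairs, Ppp1r15a, Eif2ak3, Bloc1s1, Bnip3 and the named cell type markers were chosen after values were seen.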

Additional observations from a re-analysis of the deposited data

Results flagged for a closer look

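In 8 of 72 sets of member and group, the highest or lowest library stood apart from the others by Dixon's test, which chance alone flags in about 1 set of 20. Control 1, the library with the fewest counts, was the one in 4 of them. It was high for Pdia3 at 422 CPM (other controls 359 to 371 CPM), Canx at 714 CPM (663 to 680 CPM) and Xbp1 at 95.5 CPM (86.1 to 89.3 CPM), and low for Edem2 at 16.3 CPM (18.1 to 19.0 CPM). Control 4 was low for Atf6 at 54.0 CPM (57.2 to 58.4 CPM). Control 2 was high for Derl3 at 1.18 CPM (0.159 to 0.418 CPM), a gene with few counts. Hypoxia 1 was low for Sel1l at 190.0 CPM (205 to 206 CPM), and hypoxia 2 was low for Sdf2l1 at 2.90 CPM (3.90 to 4.23 CPM). The calls of Xbp1, Edem2 and Atf6 were kept without the library named.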

How the results depend on the processing

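Under the 17 alternatives, 4 or 5 members were called higher and 8 or 9 lower, and no called member changed sign. Fitted values below 0 numbered 23 to 29 members over the settings. DESeq2 added Derl1. Creld2 was the called member that lost its call. Over all genes, leaving out 1 library gave 1385 to 2081 genes higher and 1500 to 2042 lower, and DESeq2 gave 2053 and 1827. Leaving out 1 library gave 3 to 5 members above all controls and 5 to 9 below. With no filter on low counts, 3 lay below all controls. The members' share of counts differed by -0.00134 percentage points (hypoxia minus control), and by -0.00668 to 0.00262 without 1 library, so its sign rests on single libraries. Control and hypoxia libraries share replicate numbers, and the labels do not say whether these mark pairs. Same-numbered libraries deviated together with correlations of -0.176 to 0.319, and 2 of 5 hypoxia libraries correlated best with their own number. Such correlations cannot settle whether libraries were paired. With the replicate number as a block, 1300 genes were higher and 1637 lower, and 4 and 8 members. Depth limits Derl3, whose interval ran from -1.15 to 0.69 on the log2 scale.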
